A study of Homo sapiens with 6 samples.

Results

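The 10 genes described here encode the ULK kinase complex and the class III phosphatidylinositol 3-kinase (PI3K) complexes, the machinery that starts autophagy. They were chosen by symbol, and all 10 had a row among the 17911 genes of the expression table. RNA came from HL-60, an established human promyelocytic leukaemia line. Of 6 libraries, 3 were labelled control, with no vehicle named, and 3 came from the same line given 10 uM amiodarone for 24 h. Amiodarone is an antiarrhythmic drug and a cationic amphiphilic compound, and the series title names it as an activator of the mitochondrial deacetylase SIRT3 that leads acute myeloid leukaemia cells to die by autophagy. The question is how transcripts of the initiation machinery differed between the groups. A single cell line was used, and nothing in the labels ties the libraries to separate cultures, so the p-values reflect spread among 3 libraries a group, and that spread may be technical. Protein amounts, phosphorylation and autophagic flux were not measured.

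Autophagy begins when the ULK complex, made of a ULK1 or ULK2 kinase, the scaffold RB1CC1 (also called FIP200), ATG13 and ATG101, is switched on at the endoplasmic reticulum. The kinase mTORC1 holds it back when nutrients are plentiful, and AMPK responds to a lack of energy. The active complex recruits and phosphorylates a class III PI3K complex, in which the lipid kinase PIK3C3 (VPS34), the pseudokinase-like scaffold PIK3R4 (VPS15) and BECN1 (Beclin 1) form a shared core. With ATG14 this core makes phosphatidylinositol 3-phosphate (PI3P) for the growing autophagosome, and with UVRAG in place of ATG14 it acts mainly on endosomes.

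Transcripts of these genes did not move as a block after amiodarone. RB1CC1, PIK3C3, UVRAG and ATG14 rose, whereas ATG101, ATG13, BECN1 and PIK3R4 fell. The changes were modest: the group mean of ATG101 fell by 24.6% and that of RB1CC1 rose by 57.8%, beside which ULK2 more than doubled at a very low level. ULK1, the main kinase gene in these cells, was not called. The limma test thus called 8 of the 9 tested members at an adjusted p under 0.05, but it also called 78.3% of all 11445 tested genes. Of the members 4 were higher, against 33.5% of all tested genes, and 4 lower, against 44.8%. Against a change of at least 1.2-fold, a test added after the data were seen, 3 members were called (RB1CC1 higher, ATG101 and BECN1 lower), against 39.1% of all tested genes. The share of members called was therefore close to that of genes in general. In RNA of a whole culture, fewer cells of a type and less RNA per cell cannot be told apart.

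**Figure D1:**
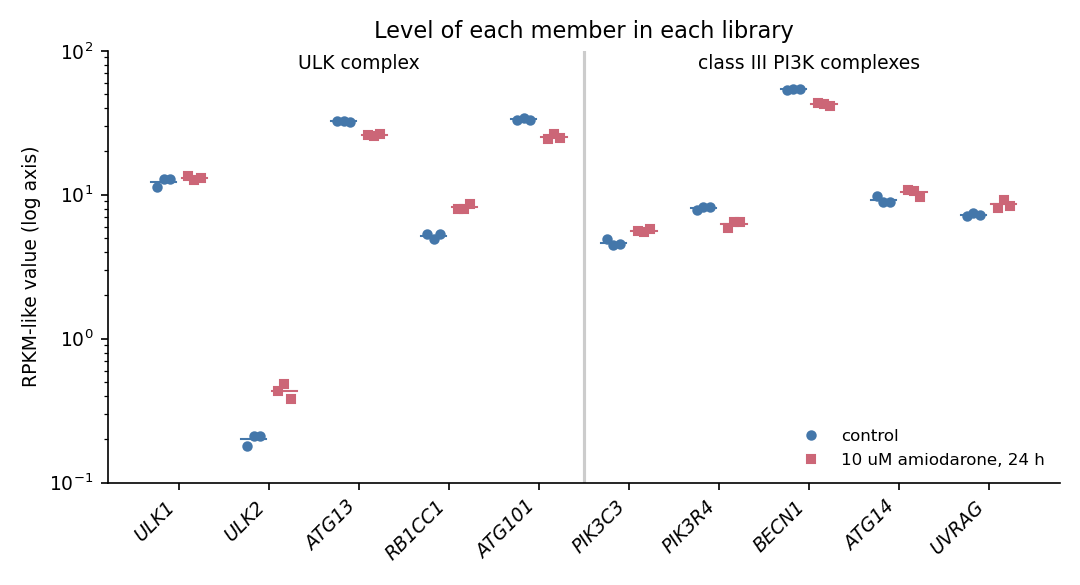
Deposited RPKM-like value (log axis) of each of the 10 genes in the 3 control libraries (blue circles) and the 3 amiodarone libraries (red squares), with short lines at the group means. BECN1 is the highest in both groups and ULK2 the lowest, at 0.18 to 0.48; the groups overlap in ULK1 and ATG14 only.

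The values resemble RPKM, which divides reads by transcript length and library depth, so they allow levels to be compared between genes as far as the authors' gene lengths hold. Depth, estimated from the steps between low values, was about 16300000 to 18400000 reads or fragments per library. In controls BECN1 was the most abundant member, with a higher value than 87.8% of the tested genes. ATG101 and ATG13 came next, then ULK1, ATG14, PIK3R4, UVRAG, RB1CC1 and PIK3C3, and ULK2 was last. The control libraries of RB1CC1 and PIK3C3 overlapped, while all other neighbours in this order were apart, ATG101 and ATG13 by only 1.03-fold in their means. In amiodarone libraries BECN1 stayed first and ULK2 last, but RB1CC1 and UVRAG passed PIK3R4, and the libraries overlapped for ATG13 and ATG101 and for UVRAG and RB1CC1. The lipid kinase PIK3C3 thus had the second lowest level of the 10 genes in both groups.

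Of 6 HL-60 markers, 5 were tested. Of these, 0 were called higher and 4 lower, beside 33.5% and 44.8% of all tested genes. MPO, the myeloperoxidase gene, had a mean of 5960 ± 43.7 (SD, n = 3) in controls and 2610 ± 28.4 after amiodarone. CD33 had 91.7 ± 2.12 and 95.5 ± 3.55 and was not called. ELANE fell from 20.5 ± 0.495 to 7.36 ± 0.805, AZU1 from 231 ± 5.6 to 122 ± 4.46 and MYC from 268 ± 4.71 to 158 ± 4.61. CD38 was not tested and stayed below 1 in every library (means of 0.303 and 0.803, without overlap). Of 6 monocyte and neutrophil markers, 3 stayed below 1 in every library and were not tested. CD14 (means of 0.347 and 0.793) and CD163 (0.05 and 0.787) were higher after amiodarone without overlap, and FCGR3B (0.147 and 0.177) overlapped. The summed value of the list was 7.55 to 8.45 in controls and 12.63 to 13.2 after amiodarone. The other members of this list went both ways. ITGAM, an integrin of mature myeloid cells, had means of 2.29 ± 0.0529 and 7.63 ± 0.0902 and was called higher. The chemokine receptor gene CXCR2 had 3.99 ± 0.35 and 2.91 ± 0.104 and was called lower. CSF1R, a receptor of the monocyte lineage, was not tested and had 1.09 ± 0.165 and 0.557 ± 0.0551, without overlap. The 3 matched erythroid and megakaryocyte markers summed to at most 0.42. Among the lymphocyte markers NKG7 had means of 126 ± 2.57 and 175 ± 4.73, while CD3E stayed below 1 in every library. Epithelial and stromal markers summed to 15.78 to 18.27, most of it PECAM1 (means of 15.2 in both groups). EPCAM was at 0 in controls, and KRT8 had means of 1.18 and 1.16 and was not called. KRT18 had 1.06 and 0.617 and was called lower, a call that rests on a filter passed only through its controls. COL1A1 was not tested and had 0.637 and 0.3, without overlap. The part that a shift in myeloid state has in the results was not tested. Copies of the MTRNR2L family, which resemble mitochondrial ribosomal RNA, took 1.68% to 1.74% of all summed values in controls and 9.93% to 10.16% after amiodarone. This changes any scaling to equal sums, and its part in the results with the values as deposited was not tested.

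In the ULK complex the scaffold rose and its adaptor subunits fell. RB1CC1, the large scaffold that holds the complex together, had values of 5.35, 4.89 and 5.34 in controls and 7.98, 7.98 and 8.63 after amiodarone. Each amiodarone library lay well above each control, and the mean rose 1.58-fold. On log2(value + 1), the scale of the test, the change was 0.57 ± 0.055 (standard error; limma, adjusted p = 2.7e-06), and 22.1% of tested genes had a larger change in either direction. In GENCODE 29 (GRCh38) the gene spans 52622456 to 52745843 of chromosome 8, minus strand, and none of its exonic bases overlap another annotated gene.

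ATG13, the regulatory subunit that links the kinase to the scaffold and is a target of mTORC1, had 32.62, 32.38 and 31.92 in controls and 25.81, 25.56 and 26.29 after amiodarone. Its groups were far apart for their spread, and the mean fell by 19.9%, with a log2 fold change of -0.31 ± 0.031 (standard error; limma, adjusted p = 3.93e-06). ATG101, which binds ATG13 and stabilises it, had 33.26, 33.84 and 33.19 against 24.36, 26.57 and 24.71. The highest amiodarone library was still below every control, and the log2 fold change was -0.39 ± 0.038 (limma, adjusted p = 2.75e-06). ATG13 lies on chromosome 11 at 46617527 to 46674818 (plus strand) and ATG101 on chromosome 12 at 52069246 to 52077494 (plus strand). Of the exonic bases of ATG101, 19.2% lie opposite an annotated antisense gene, AC025259.1, and 4.7% of those of ATG13 lie opposite HARBI1. Reads of such partners cannot be told apart here, since no source used says whether counting was stranded.

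The kinase genes differed mainly in level. ULK1 had 11.35, 12.91 and 12.78 in controls and 13.49, 12.72 and 13.00 after amiodarone. The groups overlapped, and the spread among controls came from the first library. The log2 fold change was 0.08 with a 95% interval of -0.04 to 0.19 (limma, adjusted p = 0.194). ULK1 was called higher (0.15, adjusted p = 0.0228) when libraries were scaled by the median of ratios, and its change turned to -0.007 with scaling to equal sums. ULK2, the paralogue, had 0.18, 0.21 and 0.21 in controls and 0.43, 0.48 and 0.38 after amiodarone. It stayed under the minimum value of 1 for the test, so it is the only member without a test in the main comparison. With no filter on low values its log2 fold change was 0.25 (limma, adjusted p = 6.62e-04), on a scale that understates the change of so low a gene: the ratio of means was 2.15. At the estimated depth these values stand for about 20 to 23 reads per control library and 38 to 48 per amiodarone library. ULK1 lies on chromosome 12 at 131894651 to 131923167 (plus strand) and ULK2 on chromosome 17 at 19770829 to 19867936 (minus strand), and neither shares exonic bases with another annotated gene.

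In the shared core of the class III PI3K complexes the lipid kinase rose and its partners fell. PIK3C3 had 4.90, 4.45 and 4.51 in controls and 5.59, 5.54 and 5.73 after amiodarone. The groups did not overlap, although the first control stood nearer to the amiodarone libraries than the others did, and the log2 fold change was 0.24 ± 0.054 (limma, adjusted p = 0.00198). PIK3R4, which anchors and regulates the kinase, went the other way, from 7.86, 8.17 and 8.24 to 5.83, 6.51 and 6.48. Its log2 fold change was -0.32 ± 0.054 (limma, adjusted p = 0.000207), again without overlap. PIK3C3 lies on chromosome 18 at 41955206 to 42087830 (plus strand) and PIK3R4 on chromosome 3 at 130678935 to 130746829 (minus strand), both free of exonic overlap.

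BECN1, the core subunit through which BCL2 proteins restrain the complex, had 53.12, 53.92 and 54.46 in controls and 43.17, 42.73 and 41.30 after amiodarone. It fell in every comparison of an amiodarone with a control library, with a log2 fold change of -0.34 ± 0.03 (limma, adjusted p = 1.28e-06). BECN1 lies on chromosome 17 at 42810134 to 42833350 (minus strand), where 12.4% of its exonic bases lie opposite CNTD1 and 4.7% opposite PSME3.

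The alternative subunits that direct the core to autophagosomes or endosomes were both slightly higher. ATG14 had 9.80, 8.84 and 8.85 in controls and 10.82, 10.68 and 9.71 after amiodarone, so that the lowest amiodarone library lay below the highest control. Its log2 fold change was 0.17 ± 0.056 (limma, adjusted p = 0.0186). This call ended without control replicate 2 (adjusted p = 0.0649), without control replicate 3 (0.0644), without amiodarone replicate 1 (0.0635), without amiodarone replicate 2 (0.0603) and with scaling to equal sums (0.08, adjusted p = 0.194). UVRAG had 7.16, 7.46 and 7.18 against 8.05, 9.21 and 8.39, without overlap and with a log2 fold change of 0.21 ± 0.055 (limma, adjusted p = 0.00492). Scaling to equal sums gave UVRAG 0.13 with an adjusted p of 0.0577. ATG14 lies on chromosome 14 at 55366392 to 55411858 (minus strand) and UVRAG on chromosome 11 at 75815167 to 76143195 (plus strand), where 3.8% of its exonic bases lie opposite the antisense gene UVRAG-DT. The groups did not overlap in 7 of the 9 tested members, beside 79.3% of all tested genes. Of these 7, 3 were higher, against 34.0% of tested genes, and 4 lower, against 45.3%.

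**Figure D2:**
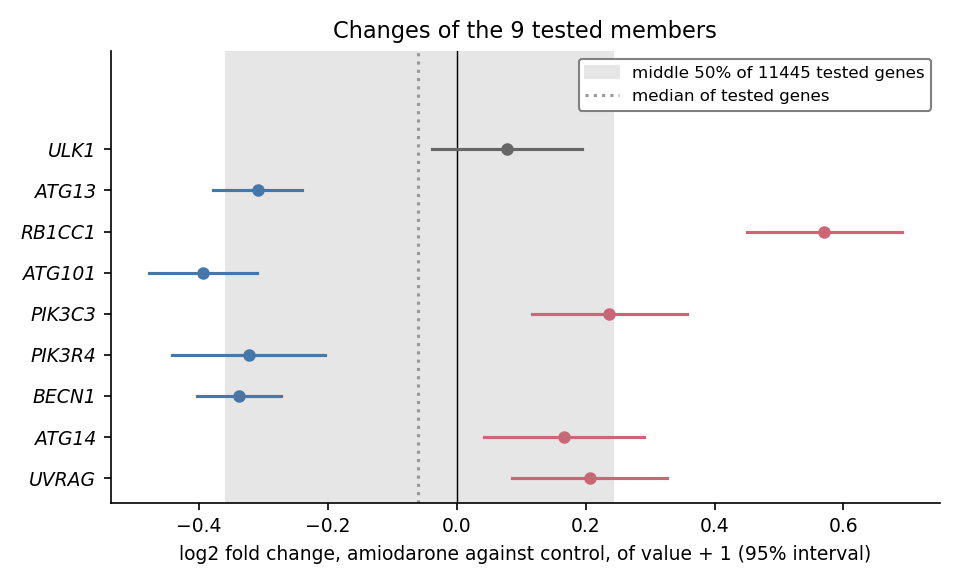
Log2 fold change of value + 1, amiodarone against control, for the 9 tested members, with 95% intervals from limma (red called higher, blue called lower, grey not called). The grey band holds the middle 50% of the 11445 tested genes (-0.36 to 0.24) and the dotted line their median (-0.06); RB1CC1 and ATG101 are the members whose point lies outside the band.

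Ratios between members within a library do not depend on how libraries are scaled. The ATG13 to RB1CC1 ratio was 6.1, 6.62 and 5.98 in controls and 3.23, 3.2 and 3.05 after amiodarone, a difference of -0.98 on the log2 scale. In deposited values, the adaptor thus went from about 6.23 to 3.16 times the scaffold (geometric means), as far as the authors' gene lengths hold. The ATG13 to ATG101 ratio stayed near 1, at 0.957 to 0.981 in controls and 0.962 to 1.06 after amiodarone, with a difference of 0.09 and overlapping groups (exact permutation p = 0.2, 0.24 adjusted over the 6 ratios).

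In the PI3K core the PIK3C3 to PIK3R4 ratio was 0.623, 0.545 and 0.547 in controls and 0.959, 0.851 and 0.884 after amiodarone, a log2 difference of 0.65. In deposited values, the kinase and its anchoring subunit were thus at more similar levels after amiodarone. The BECN1 to PIK3C3 ratio was 10.8, 12.1 and 12.1 in controls and 7.72, 7.71 and 7.21 after amiodarone, with a difference of -0.63. The ATG14 to UVRAG ratio, which sets the autophagosome subunit against the endosome subunit, was 1.37, 1.18 and 1.23 against 1.34, 1.16 and 1.16. It overlapped between the groups, with a difference of -0.05 (exact permutation p = 0.5) that turned to 0.01 without control replicate 1.

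The ULK1 to ULK2 ratio was 63.1, 61.5 and 60.9 in controls and 31.4, 26.5 and 34.2 after amiodarone. Its difference of -1.02 rests on the low values of ULK2 and was -0.175 when 1 was added to each value. For the 4 ratios whose groups were apart (ATG13 to RB1CC1, PIK3C3 to PIK3R4, BECN1 to PIK3C3 and ULK1 to ULK2) the exact permutation p was 0.1, two-sided, which is the smallest that 3 against 3 libraries can give, and 0.15 adjusted over the 6 ratios. None can pass 0.05 in this design.

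**Figure D3:**
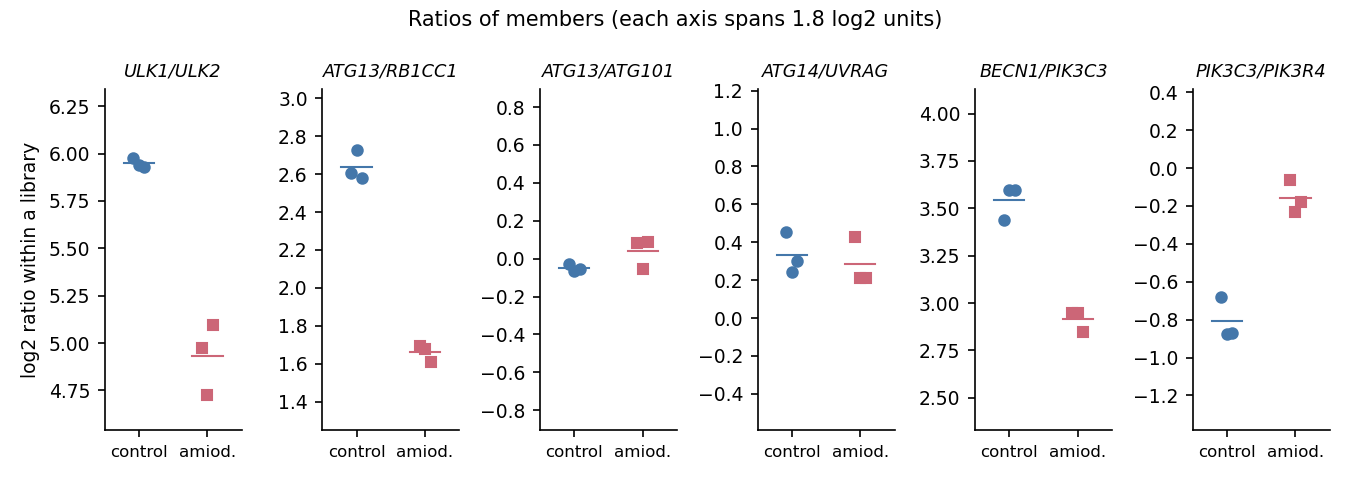
Log2 of 6 within-library ratios of deposited values in controls (blue circles) and amiodarone libraries (red squares), lines at the means, each axis spanning the same number of log2 units. ULK1/ULK2, ATG13/RB1CC1 and BECN1/PIK3C3 are lower and PIK3C3/PIK3R4 is higher after amiodarone without overlap, while ATG13/ATG101 and ATG14/UVRAG overlap.

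Replicates of the members varied about as much as those of other genes. The coefficient of variation ran from 1.07% (ATG101) to 8.66% (ULK2) in controls and from 1.43% (ATG13) to 11.6% (ULK2) after amiodarone, where 8722 genes with a control mean of at least 4 had medians of 3.15% and 3.74%. The tested genes most like RB1CC1 across the 6 libraries, by Pearson's correlation of log2(value + 1), were RAB43 (r = 0.999), TMOD2 (0.999) and RSRC1 (0.9989). They share the libraries and the split between the groups with it, and 295 tested genes had a correlation over 0.99, so that the likeness is a description only.

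Promoter sequence was compared because members of the same complex moved in opposite directions. Windows from 250 bases before to 50 after the start site were found in RefSeq (GRCh38.p14) for 8 members, without RB1CC1 and UVRAG. The hexamer CACGTG, the core of sites bound by TFEB and its relatives, was present in the ATG14 window only, 21 bases before the start, and in 7.43% of 27305 windows of all genes. The GC box GGGCGG was found in ULK1, ATG101 and PIK3C3, and in 44.6% of all windows. It thus occurred in a member that rose, a member that fell and a member that was not called. The motif TGATGNAA of ATF4 and CHOP (3.67% of all windows), the E2F motif TTTNNCGC (6.90%) and the FOXO motif GTAAACA (3.41%) had no match in the 8 windows. Both strands were searched, no matches of different motifs overlapped, and a match is a description of the sequence, not of binding.

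The 100 bases before the start are shown for 4 members, 5′ to 3′ along the gene's strand, with motif matches in capitals. ATG14 is shown for its E-box (chr14:55411831-55411930, minus strand), PIK3C3 (chr18:41955134-41955233, plus strand) and ATG101 (chr12:52069878-52069977, plus strand) for GC boxes in genes that moved in opposite directions, and PIK3R4 (chr3:130746830-130746929, minus strand) as the partner of PIK3C3 with no match.
ATG14: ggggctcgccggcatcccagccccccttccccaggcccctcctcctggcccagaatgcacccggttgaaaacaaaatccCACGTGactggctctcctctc
PIK3C3: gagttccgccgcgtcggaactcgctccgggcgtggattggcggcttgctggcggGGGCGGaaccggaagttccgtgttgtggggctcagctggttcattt
ATG101: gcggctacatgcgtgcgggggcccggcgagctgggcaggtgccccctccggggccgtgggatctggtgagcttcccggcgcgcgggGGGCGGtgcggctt
PIK3R4: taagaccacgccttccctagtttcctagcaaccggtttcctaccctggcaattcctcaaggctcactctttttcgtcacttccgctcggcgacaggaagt

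The members were then set beside other genes of the pathway. Over all tested genes the median log2 fold change was -0.06, with 33.5% called higher and 44.8% lower. Of the 90 tested genes of the 9 other lists, 73 (81.1%) were called, near the 78.3% of all tested genes. Upstream, in the list of mTORC1 subunits and their brakes, 4 of 13 genes were called higher and 6 lower, and the median was -0.08. MTOR, the kinase that inhibits the ULK complex, fell from 8.9 ± 0.258 to 5.63 ± 0.24 (log2 fold change -0.58, limma, adjusted p = 1.14e-06), and TSC2, a brake on mTORC1, fell from 20.3 ± 0.469 to 13.7 ± 0.39. DDIT4, which encodes the stress-induced mTORC1 inhibitor REDD1, rose 1.55-fold, although 41.2% of its exonic bases lie opposite an antisense gene. MLST8, an mTOR complex subunit, rose from 77.1 ± 1.17 to 95.3 ± 3.51.

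In the list of AMPK and its activating kinases 5 of 10 tested genes were called higher and 4 lower, and the median was 0.04. The AMPK subunit genes PRKAG2 (11.6 ± 0.347 to 15.9 ± 0.77), PRKAG1 (33.9 ± 1.59 to 41.1 ± 1.26) and PRKAA1 (13.6 ± 0.573 to 15.4 ± 0.164) rose. STK11, the kinase LKB1 that activates AMPK, fell from 32.8 ± 0.529 to 22.8 ± 0.605, and the mean of its pseudokinase partner STRADB fell by 34.1%. The call of PRKAA1 ended with scaling to equal sums (0.09, adjusted p = 0.087).

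Partners of the PI3K complexes were split, with 7 of 16 called higher and 6 lower (median 0.11). Without DAPK1, whose controls were all below the minimum value of 1 so that it passed the filter through its amiodarone libraries alone, 6 of 15 were higher and 6 lower (median 0.10). NRBF2, which stabilises the ATG14 complex, rose from 19.2 ± 0.616 to 21.1 ± 0.675, a call that ended with scaling to equal sums (0.04, adjusted p = 0.352). SH3GLB1, which binds UVRAG and curves membranes, rose from 11.3 ± 0.197 to 17.2 ± 0.463. DAPK1, a kinase that phosphorylates Beclin 1, had 0.803 ± 0.0896 and 2.97 ± 0.24, and its call rests on that filter. BCL2, which binds Beclin 1, fell from 6.19 ± 0.179 to 4.08 ± 0.251, while its relative MCL1 rose from 42.8 ± 1.74 to 48.5 ± 1.62 (adjusted p = 0.0616 with scaling to equal sums). Its other relatives in the list, named here after their values were seen, also went both ways. BCL2L1 rose from 19.6 ± 0.496 to 28.0 ± 0.931 (limma, adjusted p = 3.91e-07), with 43.0% of its exonic bases opposite an antisense gene. BCL2L2 fell from 10.3 ± 0.0611 to 9.3 ± 0.467 (limma, adjusted p = 0.0181), with 19.4% of its exonic bases shared with BCL2L2-PABPN1 on the same strand. HMGB1, a chromatin protein that can bind Beclin 1, fell from 169 ± 2.85 to 89.8 ± 3.35, and USP10, a deubiquitinase of Beclin 1, from 33.4 ± 0.437 to 24.5 ± 0.591. AMBRA1, a scaffold of both complexes (8.39 ± 0.485 and 9.13 ± 0.15, adjusted p = 0.0625), and RUBCN, an inhibitor of the UVRAG complex (4.61 ± 0.221 and 5.02 ± 0.237, adjusted p = 0.122), were not called by limma. Both were called higher with scaling by the median of ratios (adjusted p = 0.00507 and 0.0176), and AMBRA1 also without control replicate 1 (0.0195).

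**Figure D4:**
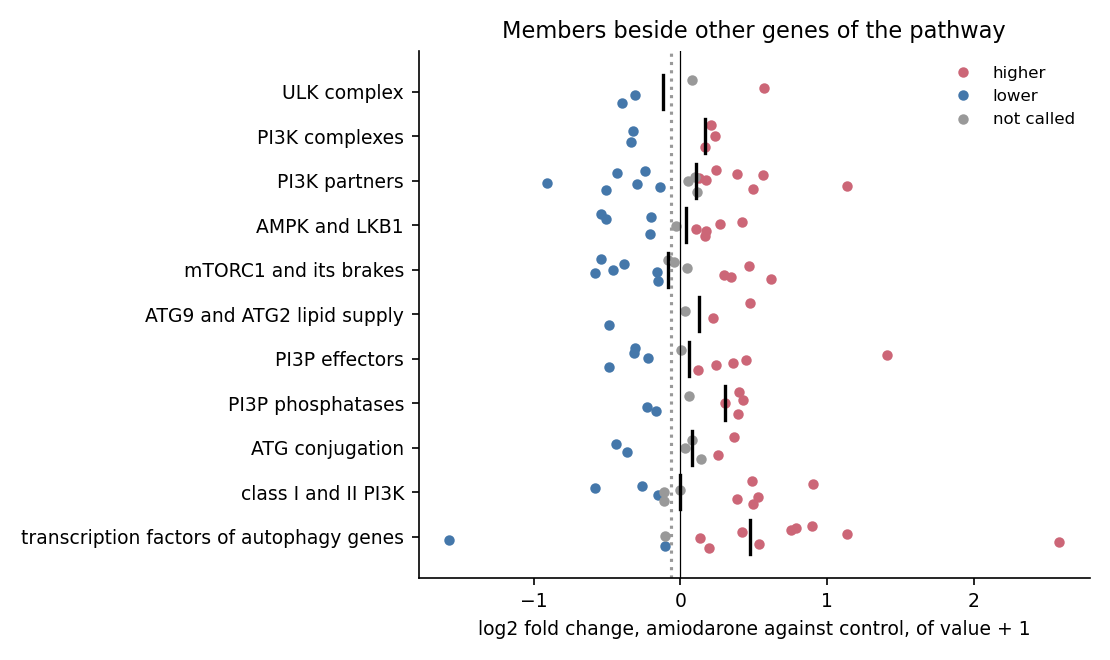
Log2 fold change of value + 1 for the tested members and for tested genes of 9 other lists of the pathway (red called higher, blue lower, grey not called), with a black bar at each list's median and a dotted line at the median of all tested genes. Every list but that of the transcription factors has a median between -0.12 and 0.31, and each holds genes of both directions.

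Downstream, genes that carry lipid to the growing membrane gave 2 higher and 1 lower of 4 tested, with a median of 0.13 (0.034 with no filter or at a minimum value of 5). TMEM41B, a lipid scramblase, rose from 11.3 ± 0.463 to 16.1 ± 0.615, and of the lipid transfer proteins ATG2A fell from 10.0 ± 0.369 to 6.91 ± 0.454 and ATG2B rose from 2.73 ± 0.248 to 3.35 ± 0.293. The ATG2B call ended without control replicate 1 (adjusted p = 0.0668), without amiodarone replicate 2 (0.0697) and with scaling to equal sums (0.0814). ATG9A, the membrane scramblase that the ULK complex acts on, had 10.5 ± 0.494 and 10.8 ± 0.275 and was not called (limma, adjusted p = 0.524). Of its exonic bases, 38.8% are shared with an annotated gene on the same strand, AC068946.2.

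Of 10 genes for proteins that bind or use PI3P, 5 were called higher and 4 lower, and the median was 0.06 (0.24 at a minimum value of 5). WIPI1 rose 3.04-fold (log2 fold change 1.41), with 24.3% of its exonic bases opposite ARSG, whereas its relative WIPI2, which recruits the conjugation machinery, fell from 21.5 ± 0.765 to 17.1 ± 0.878. WDR45 rose from 9.75 ± 0.626 to 13.7 ± 0.0458, and VAC14, a scaffold of the enzyme that converts PI3P further, from 27.1 ± 0.17 to 35.0 ± 0.44. Of the exonic bases of WDR45, 13.9% are shared with PRAF2 on the same strand. FYCO1, an adaptor for autophagosome transport, fell from 4.53 ± 0.0874 to 2.95 ± 0.153.

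Among PI3P phosphatases, which remove the product of PIK3C3, 4 of 7 tested genes were called higher and 2 lower, and the median was 0.31, or 0.059 with no filter on low values. MTMR3 rose from 9.93 ± 0.26 to 13.7 ± 0.0945, and an annotated antisense gene covers 65.3% of its exonic bases. MTM1 rose 1.35-fold and MTMR2 from 9.2 ± 0.332 to 11.6 ± 0.403, while MTMR14 fell from 46.4 ± 0.108 to 39.6 ± 1.28. In the conjugation system that follows, 2 of 7 were called higher and 2 lower, and the median was 0.08. ATG7, its activating enzyme, rose from 18.0 ± 0.65 to 23.5 ± 0.802 and ATG12 from 7.08 ± 0.251 to 8.65 ± 0.291. ATG3, the enzyme that transfers ATG8 proteins to lipid, fell from 45.4 ± 2.39 to 33.2 ± 1.84 and ATG16L1 from 10.0 ± 0.0252 to 7.57 ± 0.391. Exons of ATG7 lie opposite VGLL4 over 18.1% of their bases.

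The class I and II PI3K genes were likewise split, with 5 of 11 called higher and 3 lower (median -0.005). PIK3R5, a regulatory subunit of the leukocyte PI3K gamma, rose 1.99-fold from 7.86 ± 0.0929 to 15.6 ± 0.506, PIK3CB from 13.8 ± 0.16 to 20.4 ± 0.749 and PIK3C2A from 4.36 ± 0.429 to 6.54 ± 0.186. PIK3R2 fell from 23.5 ± 0.66 to 15.4 ± 0.561, with 87.2% of its exonic bases shared with an overlapping gene on the same strand.

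Of 12 tested transcription factors known to act on autophagy genes 9 were called higher and 2 lower, beside 33.5% and 44.8% of all tested genes, and the median was 0.48. The 9 include MITF, named here after its values were seen, whose controls were 0.63, 0.73 and 0.55 and which passed the filter only through its amiodarone libraries (1.24, 1.17 and 1.14). Without it 8 of 11 were higher and 2 lower, with a median of 0.54. TFEB rose 1.92-fold and FOXO3 from 8.06 ± 0.0416 to 8.94 ± 0.41. The FOXO3 call ended on leaving out any control library (adjusted p of 0.051 to 0.0576), amiodarone replicate 2 (0.0523) or amiodarone replicate 3 (0.0913) and with scaling to equal sums (adjusted p = 0.363). HIF1A, the hypoxia factor, rose 2.34-fold (8.12 ± 0.454 to 19.0 ± 0.479), CEBPB from 124 ± 3.35 to 180 ± 6.25, and DDIT3, which encodes CHOP, 6.24-fold, with 27.2% of its exonic bases opposite MARS. E2F1, a factor of the G1/S transition, fell from 41.4 ± 0.463 to 13.3 ± 0.954.

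**Figure D5:**
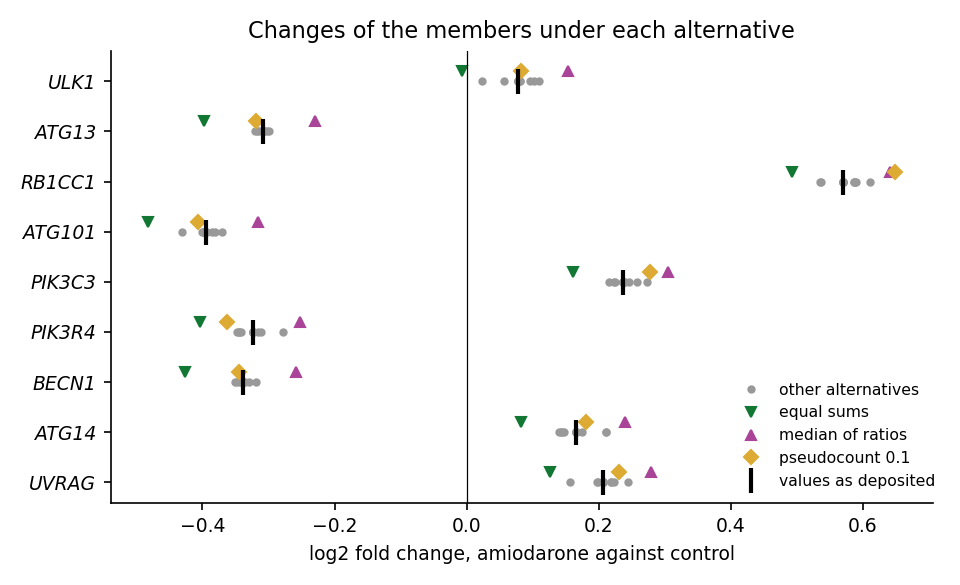
Log2 fold change of each tested member with the values as deposited (black bar) and under the alternatives: scaling to equal sums (green), scaling by the median of ratios (purple), a pseudocount of 0.1 (yellow) and the others (grey). Scaling shifts all members together; ULK1 is the only one whose point crosses 0, at -0.007, and RB1CC1 stays between 0.492 and 0.649.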

How the data were processed

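Tools named per the submitters' processing notes are STAR 2.5.3a, fastp 0.23.4 and featureCounts, with the build GRCh38.p12 and no role or order. Annotation, strand setting and the treatment of ambiguous reads are not given in the sources used. The deposited table gives 1 value per gene and library whose unit the headers do not state. The deposited values were treated as RPKM, from their size and from steps that scale with gene length. Over low values of genes with 1 annotated transcript of under 1500 bases, 52.7% to 58.5% lay within 0.15 of a whole step (25.1% to 26.3% at the median of other steps); the step was chosen to raise this share, so the depth is an estimate and whole reads were not recovered. No library was a duplicate: any pair shared identical values in at most 0.637% of genes.

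Values were used as deposited. The 11445 genes reaching 1 in 3 or more libraries were tested with limma 3.58.1 in R 4.3.3 (eBayes with trend, 4 residual and 6.59 prior degrees of freedom) on log2(value + 1), Benjamini-Hochberg adjusted over all of them. The procedure was also run on simulated data in which only a small share of genes changed. In the real data 78.3% of tested genes were called, so that run does not vouch for these calls. A gene's fold is the ratio of its group means, and ± is the SD over 3 libraries unless a standard error is named. Ratios were tested with exact permutation tests. Named genes are the 10 members, from each list up to 4 called genes by smallest adjusted p (2 more where those moved in 1 direction), and 11 regulators set by name. MITF, BCL2L1 and BCL2L2 were named after their values were seen. Members and lists were chosen with earlier results of these data known. HBB, HBG1, MS4A1 and COL1A2 were not analysed here. Of the lymphocyte markers, 1 is not reported here. Positions and exon overlaps are from GENCODE 29 (GRCh38). Alternatives tried were other pseudocounts, filters, scalings and limma settings, a replicate block, leaving out each library and a test against a 1.2-fold change.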

Additional observations from a re-analysis of the deposited data

How the results depend on the processing

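RB1CC1, ATG101 and BECN1 kept their direction and their call under all 16 alternatives run, and ATG13, PIK3C3 and PIK3R4 under all but the test against a 1.2-fold change, added after the data were seen (adjusted p = 0.187, 1 and 0.301). That test called 4472 genes (1844 higher, 2628 lower), 3 members (1 higher, 2 lower) and 36 of the 90 tested genes of the other lists (23 higher, 13 lower), beside 39.1% of all tested genes, where the main comparison called 73 (43 and 30; 81.1%, beside 78.3%). With scaling to equal sums 2 members were called higher, ULK1 turned to -0.007, ATG9A to -0.05 and the medians of the AMPK, PI3P effector and conjugation lists to -0.046, -0.01 and -0.005. Scaling by the median of ratios turned the medians of class I and II PI3K genes to 0.061 and of all tested genes to 0.011. With no filter the medians were 0.078 for the ULK complex and 0.002 for all genes, and at a minimum value of 5 that of class I and II PI3K genes was 0.441. Medians of other lists that kept their sign also moved, such as that of the PI3P phosphatases to 0.059 and of the lipid supply list to 0.034 with no filter, and that of the PI3P effectors to 0.24 at a minimum value of 5. Counts without DAPK1 and MITF were added after the data were seen. The ATG14 to UVRAG difference ranged from -0.121 to 0.01 when 1 library was left out. Same-numbered libraries did not deviate together from their group means (correlations of -0.155, -0.018 and -0.023). Such correlations cannot tell whether libraries were paired by culture or day, and the labels do not say. With the replicate block 8770 genes and 8 members were called, and no member's call changed. At a minimum value of 5, DAPK1, RUBCN, ATG2B and FYCO1 were not tested, nor was DAPK1 without any 1 amiodarone library. Values near the low end, such as ULK2, are limited by depth.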

Other observations

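Some genes of the pathway lists lay under the filter and were not tested. RUBCNL, a relative of RUBCN that promotes rather than inhibits autophagosome maturation, had a mean of 0.177 ± 0.0723 in controls and 1.07 ± 0.105 after amiodarone (SD, n = 3 per group), with no overlap. ATG9B, the second ATG9 gene, had 0.5 ± 0.07 and 0.307 ± 0.0404, and FOXO1 had 0.5 ± 0.05 and 0.387 ± 0.0153, each without overlap and in the opposite direction. The AMPK subunit gene PRKAA2 (0.0367 ± 0.0208 and 0.0533 ± 0.0493) and the phosphatase genes MTMR7 (0.23 ± 0.0656 and 0.227 ± 0.0757) and MTMR8 (0.623 ± 0.114 and 0.493 ± 0.11) overlapped between the groups. PIK3C2G was at 0.0133 ± 0.00577 and 0.0367 ± 0.0115, without overlap but near the limit of the 2 decimals given.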
